A study of Mus musculus with 44 samples.

Results

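The hair shaft keratins are the hard keratins from which the fibre of the hair is built. Of 10 listed genes (Krt31, Krt32, Krt33a, Krt33b, Krt34, Krt35, Krt81, Krt83, Krt85 and Krt86), 9 were measured among the 43411 genes of the table, and Krt85 was not analysed here. The members were taken as a list of cortex and cuticle keratins, matched from Ensembl identifiers to symbols. The rule uses no measured value, but the list was chosen with earlier results of these data known. The data are RNA-seq of back skin from 44 wild-type female C57Bl/6 mice, 8 weeks old when daily subcutaneous injections of 100 µL began. Saline went into 10 control mice. Bleomycin was injected over 2 weeks in 10 mice and over 4 weeks in another 10, and after the 4-week course 6 mice were left to recover for 6 weeks and 8 mice for 10 weeks. Bleomycin, a DNA-damaging drug used here to induce dermal fibrosis, was at 1 U/mL per the labels. The end point of the saline mice is not given in the sources used here, and the bleomycin and recovery groups differ in the time from the first injection, so treatment, time and age cannot be told apart.

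Hair keratins work in pairs, each filament needing an acidic type I and a basic type II partner. They are made in the lower part of growing follicles, where matrix cells leave the cell cycle and become cortex, cuticle or inner root sheath. Krt35 is switched on early, just above the matrix, while Krt31, Krt33a, Krt33b, Krt34, Krt81, Krt83 and Krt86 follow higher in the cortex, and Krt32 belongs to the cuticle of the fibre. Keratin-associated proteins then crosslink the filaments. Resting follicles hold a finished club hair and make little hair keratin.

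The type I members lie side by side on chromosome 11 of GRCm38, on the minus strand and with 7 exons each. Krt33a spans 100011195 to 100016212, Krt33b 100023634 to 100029868, Krt34 100037347 to 100041554, Krt31 100046646 to 100050551, Krt32 100080848 to 100088226 and Krt35 100092193 to 100096241. The type II members lie on chromosome 15 with 9 exons each, Krt81 at 101459061 to 101463751 and Krt83 at 101485130 to 101491512 on the minus strand, and Krt86 at 101473478 to 101479986 on the plus strand. The symbol Krt83 here is that of the current annotation, and older lists use it for the neighbouring gene now called Krt87.

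Promoters from RefSeq (GRCm38.p6) were at hand for 4 of the 9 measured members, all of them in the type I cluster, and these are shown. Moving together across mice, described below, was not particular to this cluster. It held for members on both chromosomes, and least for Krt32. Each sequence is the 250 bases before the RefSeq start, on the transcribed strand, with matches to searched motifs in capitals. Krt33b is at chr11:100029869-100030118, Krt34 at chr11:100041555-100041804, Krt31 at chr11:100050552-100050801 and Krt32 at chr11:100088270-100088519, all on the minus strand. The RefSeq start of Krt32 lies upstream of the end of the gene as given above, and its motif distances are counted from the RefSeq start.
Krt33b: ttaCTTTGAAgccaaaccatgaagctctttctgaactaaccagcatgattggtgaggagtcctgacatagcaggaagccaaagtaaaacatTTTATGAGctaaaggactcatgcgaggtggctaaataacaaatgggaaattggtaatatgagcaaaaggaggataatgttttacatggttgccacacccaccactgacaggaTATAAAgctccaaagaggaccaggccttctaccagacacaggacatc
Krt34: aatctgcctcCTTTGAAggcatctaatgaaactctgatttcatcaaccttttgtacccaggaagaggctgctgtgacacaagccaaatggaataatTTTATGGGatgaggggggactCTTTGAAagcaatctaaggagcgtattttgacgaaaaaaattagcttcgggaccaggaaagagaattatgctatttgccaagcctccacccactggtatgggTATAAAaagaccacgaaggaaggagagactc
Krt31: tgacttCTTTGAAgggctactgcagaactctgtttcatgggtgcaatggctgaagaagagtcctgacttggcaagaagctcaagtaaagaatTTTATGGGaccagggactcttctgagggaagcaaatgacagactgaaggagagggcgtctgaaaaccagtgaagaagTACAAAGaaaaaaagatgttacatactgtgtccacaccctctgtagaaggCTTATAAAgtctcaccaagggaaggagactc
Krt32: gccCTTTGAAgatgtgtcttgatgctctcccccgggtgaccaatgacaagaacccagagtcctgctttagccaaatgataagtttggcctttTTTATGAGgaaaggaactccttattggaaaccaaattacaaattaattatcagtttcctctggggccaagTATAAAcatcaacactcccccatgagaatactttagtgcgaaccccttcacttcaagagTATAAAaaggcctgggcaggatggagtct

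The motifs, searched on both strands, were the TATA box as TATAAA, the LEF1/TCF motif as CTTTGAA or CTTTGTT and also as CTTTGAT or CTTTGTA, and a HOXC13 motif as any of 8 forms. These forms were TTAATNAA and TTAATNAG, then TTAATNGA and TTAATNGG, then TTTATNAA and TTTATNAG, and then TTTATNGA and TTTATNGG. LEF1 carries Wnt signals in the hair matrix, and HOXC13 is a homeodomain factor needed for hair keratin expression. All 4 promoters held all 3 motifs in the same order. CTTTGAA began 240 to 247 bases before the start, the HOXC13 motif began 154 to 159 bases before it, and a TATA box began 29, 29, 31 and 47 bases before it in Krt31, Krt32, Krt34 and Krt33b. Of the 32851 promoters in the same table, 12.4% held TATAAA, 14.8% a LEF1/TCF motif, 17.2% a HOXC13 motif, and 395 (1.20%) held all 3. None of the promoters of Krt36, Krt39, Krt40, Krt82 and Krt84, other hair fibre keratins, held all 3, and that of Krt36 held 0. Krt34 and Krt31 each had a second LEF1/TCF match, 133 and 81 bases before the start, and Krt32 a second TATAAA at 88. In Krt31 a second HOXC13 match (CTTATAAA) overlaps the TATA box. These genes are paralogs with related sequence, and a match is a description of letters, not of a bound site.

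The same relatedness bears on the counts. The authors sequenced paired 50-base reads from stranded libraries, and the counting tool and its strand setting are not given in the sources used here. Of the 50-base windows of each transcript, 43.5% in Krt81, 43.3% in Krt86, 33.1% in Krt34, 28.1% in Krt31, 24.2% in Krt33b, 23.2% in Krt83 and 21.9% in Krt33a also occur in another gene, always a keratin. Krt35 shared 3.95% of its windows and Krt32 shared 0. The level of a single cortex keratin is therefore less certain than that of Krt35 or Krt32. Krt32 overlaps Gm11571, an antisense gene on the plus strand, whose level was 0 in 9 of 10 mice after 2 weeks of bleomycin and at most 34.0 in any mouse.

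The deposited values are counts divided by a DESeq2 size factor, called normalized counts here. Total reads on genes ranged from 8509094 to 15285577 per mouse, so that 1 read was worth about 1 normalized count. Values below 3 reads were counted as under the floor, but all values entered the fits. The members together took from 0.000578% to 0.605% of the reads of a mouse. Markers of keratinocytes (Krt5, Krt10 and Krt14) were high in every group, with median sums of 148920 to 166861. The sum of the leukocyte markers Ptprc, Cd68 and Lyz2 had medians of 9221 with saline, 20484 after 2 weeks and 16536 after 4 weeks of bleomycin, and 9758 and 9476 after recovery, and their part in the results was not tested. In bulk skin, fewer cells of a type and less RNA per cell cannot be told apart. The libraries least like their groups were saline mouse 1 and mouse 2 given bleomycin for 2 weeks (median Spearman rho with the group of 0.950 and 0.948).

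With saline, the hair shaft keratins were high in most mice and differed widely between them. Krt31, a type I cortex keratin, was at 14.5 normalized counts in the lowest mouse, 744 at the median and 6336 in the highest. Krt33a ran from 21.8 through 1156 to 9510, and Krt81, a type II cortex keratin, from 15.8 through 1089 to 9947. In 8 of 10 saline mice all 7 cortex keratins stood at 100 or above, and in mice 2 and 6 all 7 stood below it. Mouse 1 held the highest value of all 9 members. The plot of levels by mouse shows this split in each member.

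**Figure D1:**
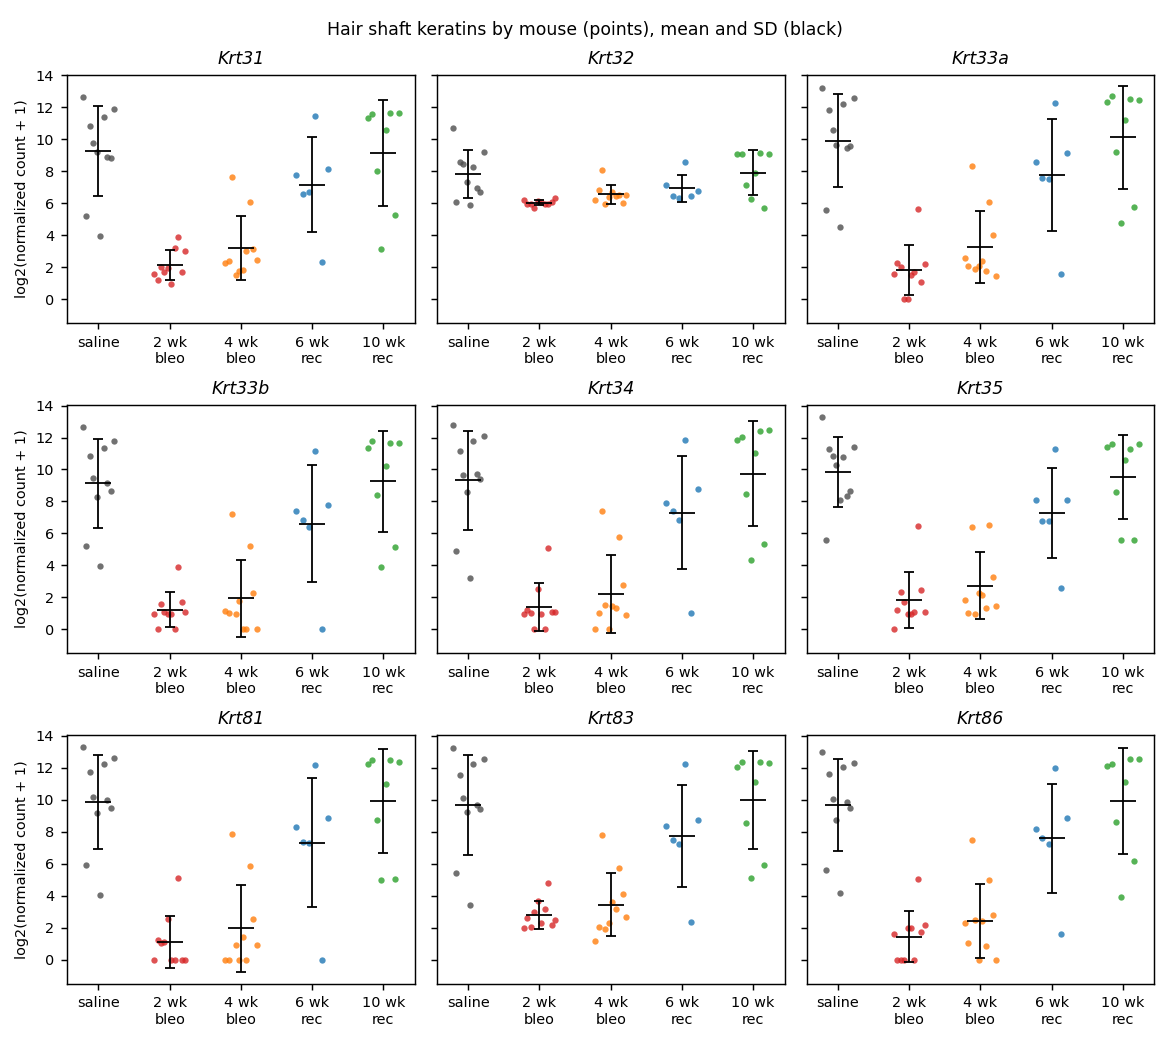
Level of each measured hair shaft keratin, as log2(normalized count + 1), in 44 mice by group (wk, weeks; bleo, bleomycin; rec, recovery). Points are mice, black lines the mean and SD; means of the bleomycin groups lie between 1.09 and 3.45 except for Krt32 (6.04 and 6.57), with mice 3 and 8 at 4 weeks and mouse 8 at 2 weeks above the rest in most members, and saline and 10-week recovery mice span most of the scale.

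Scaling per kilobase of transcript adjusts for length but not for sequence shared with other keratins, so the order of the members is uncertain. On this scale the median levels with saline were highest for Krt35 (866), Krt33a (687) and Krt81 (591). Krt83 (550), Krt34 (512), Krt86 (508), Krt31 (471) and Krt33b (407) followed, and Krt32 was lowest at 139. Each member varied widely between mice: Krt35, for example, ranged from 27.9 to 5805 per kilobase and Krt33a from 13.0 to 5651. The members come from the same libraries, so medians and ranges over mice do not order neighbours within a mouse. In the group at 10 weeks of recovery the order began with Krt33a at 2196 per kilobase, and Krt35 stood in place 8 at 1168. Krt32 was again last.

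After 2 weeks of bleomycin all the measured hair shaft keratins but Krt32 had medians below 5 normalized counts. All 9 measured members were lower than with saline by limma on log2(normalized count + 1), at the DEG criteria of more than 1.5-fold and a Benjamini-Hochberg adjusted p under 0.05, against 7.43% of the 17037 genes tested that were called lower. The median log2 fold change of the members was -7.93, and that of all genes tested was 0.00. All comparisons with saline share the same 10 saline mice, and those with 4 weeks of bleomycin the same 10 mice of that group.

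Krt81 was at 0 in 5 of the 10 mice after 2 weeks, with a median of 0.514 and a highest value of 32.7. Its log2 fold change was -8.77 (standard error 1.23, limma adjusted p = 1.76e-07), the largest fall of the members. Krt86, a type II partner, had a median of 2.13 and a highest value of 31.6, and its log2 fold change was -8.24 (1.14). Krt83 kept a few reads in each mouse, from 2.97 through a median of 4.95 to 26.1, and fell by 6.87 on the log2 scale (standard error 1.07). Mouse 8 was the highest of its group in all 3 type II members.

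The type I cortex keratins were also near the floor. Krt31 was at 0.960 to 14.2 with a median of 2.57 (log2 fold change -7.14, standard error 1.05, limma adjusted p = 4.48e-07). Krt33b was at 0 to 14.2 with a median of 1.06, and fell by 7.90 on the log2 scale. For these 2 genes every bleomycin mouse lay below every saline mouse in normalized counts, which held for 1.33% of all genes tested. The margin was under 1 read, with bleomycin mouse 8 at 14.16 and saline mouse 6 at 14.55 for both genes. In unscaled reads mouse 8 was the higher of the pair, so this full separation rests on the size factors. Krt33a (median 2.14, highest 47.9, log2 fold change -8.11) and Krt34 (median 1.08, highest 33.8, log2 fold change -7.93) overlapped the saline range only through mouse 8. As most of these values lie at or under 3 reads, the fitted fold changes depend on the pseudocount: with 0.1 in place of 1, the log2 fold changes of the 9 members ran from -10.69 to -1.78.

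Krt35, the early cortex keratin, went from 48.0, 1491 and 9996 (lowest, median and highest) with saline to 0, 1.24 and 86.1 after 2 weeks. Its log2 fold change was -8.02 (standard error 0.957, limma adjusted p = 4.93e-09). Mouse 8 was again the exception, and the other 9 mice reached at most 4.54.

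Krt32, the cuticle keratin, was at 58.2, 232 and 1669 (lowest, median and highest) with saline, and at 51.6, 64.6 and 81.0 after 2 weeks of bleomycin. The fall was 1.77 on the log2 scale (standard error 0.438, limma adjusted p = 0.00125), and the ranges overlapped. Its SD on the log2 scale was 1.51 with saline and 0.174 after 2 weeks of bleomycin. No bleomycin mouse of this group came near the floor for Krt32, and mouse 8 (62.1) did not stand out.

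**Figure D2:**
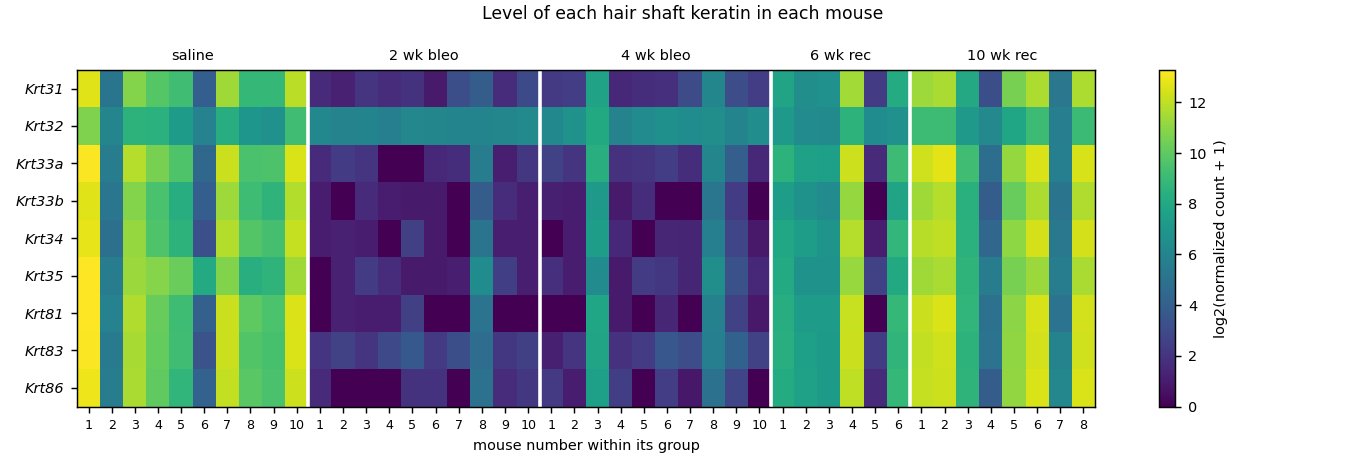
Levels of the 9 measured members, as log2(normalized count + 1), in each of 44 mice, ordered by group and mouse number (wk, weeks; bleo, bleomycin; rec, recovery). Columns change largely as a whole apart from the row of Krt32, and in saline mouse 6 Krt35 stands above its column. Mouse 8 at 2 weeks, mice 3 and 8 at 4 weeks and mouse 4 at 6 weeks of recovery are brighter than their groups.

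After 4 weeks of bleomycin the 9 members were still lower than with saline, against 7.37% of genes tested called lower. The log2 fold changes, apart from Krt32, ran from -6.06 (Krt31) to -7.91 (Krt81), with limma adjusted p-values from 7.79e-08 to 9.19e-06. Krt31 was at 1.83, 4.32 and 198 (lowest, median and highest), and Krt81 at 0, 0.895 and 231. The high values belonged to mouse 3, in which all 7 cortex keratins were above 100 and Krt35 was at 84.1, and to mouse 8, in which Krt35 was at 92.5 and the cortex keratins at 31.1 to 66.8. In the other 8 mice no cortex keratin passed 16.5 and Krt35 did not pass 8.72.

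Krt32 was at 61.4, 88.7 and 271 in this group, and its log2 fold change of -1.25 (standard error 0.438, limma adjusted p = 0.0219) rested on single mice. Without saline mouse 1 it was -0.93 with an adjusted p of 0.0690, and without saline mouse 10 it was -1.10 with an adjusted p of 0.0502.

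Between 4 and 2 weeks of bleomycin, limma called 0 of the 9 members, against 2.35% of all genes, and 0 had an unadjusted p below 0.05. EdgeR called 0, and DESeq2 called Krt31 higher at 4 weeks (log2 fold change 2.77, standard error 0.908, adjusted p = 0.0335). Apart from Krt32, the medians of both groups lay between 0.514 and 6.56 normalized counts, that is, a few reads per mouse. Krt32 was well above the floor, and 7 of 10 mice at 4 weeks lay above all mice at 2 weeks, with a log2 difference of 0.52 (standard error 0.438, limma adjusted p = 0.535).

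At 6 weeks of recovery the members had come back in most mice, though to unequal levels. Compared with 4 weeks of bleomycin, 8 of 9 members rose, against 4.80% of all genes called higher. Krt81 showed the largest rise, of 5.37 on the log2 scale (standard error 1.42, limma adjusted p = 0.00402), and Krt31 the smallest of the 8, of 3.97 (1.21, adjusted p = 0.0128). Krt32 had a log2 difference of 0.38 (0.506, adjusted p = 0.632).

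The 6 mice of this group spread over nearly the whole scale. Krt31 was at 4.10 in mouse 5, at 93.0, 104, 217 and 287 in mice 2, 3, 1 and 6, and at 2827 in mouse 4. Krt35 was at 5.13 in mouse 5, at 109.7 to 277 in mice 1, 2, 3 and 6, and at 2445 in mouse 4. For both genes, mouse 5 lay within the range of the mice on bleomycin and below all saline mice. The other mice, not mouse 4 alone, lay within the saline range. The groups overlap, and for Krt31 mice 2 and 3 also lay below the highest mouse at 4 weeks of bleomycin (198). When values were replaced by normal scores of their ranks, 0 of the 9 members passed (limma adjusted p from 0.0530 to 0.572). Without mouse 4 the median log2 fold change of the 8 members other than Krt32 was 3.74 in place of 4.59, and Krt31 no longer passed (adjusted p = 0.0641); without mouse 5 the median was 5.85.

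Against saline, limma called 0 of the 9 members at 6 weeks of recovery (5.04% of all genes were called in either direction), as did edgeR and DESeq2. All 9 log2 fold changes were negative, from -0.87 for Krt32 (standard error 0.506) to -2.58 for Krt35 (standard error 1.10), and only Krt35 had an unadjusted p below 0.05. Without recovery mouse 4, Krt35 passed, at -3.38 with an adjusted p of 0.0444. The median of the 8 members other than Krt32 was -2.12, and became -3.01 without recovery mouse 4, -0.99 without recovery mouse 5 and -2.72 without saline mouse 6. A 95% interval of each log2 fold change was taken from its standard error and a normal distribution. It is narrower than the limma test implies and is not adjusted for the number of genes. This interval was -4.75 to -0.42 for Krt35 and -5.06 to -0.0039 for Krt33b. Krt33b had an unadjusted limma p of 0.0561, so its interval does not show a difference from 0. For the other 7 members the interval held 0, as for Krt31 (-4.47 to 0.27) and Krt81 (-5.32 to 0.23).

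At 10 weeks of recovery all 9 members were higher than at 4 weeks of bleomycin, against 6.73% of all genes called higher. The largest rise was in Krt81, of 7.96 on the log2 scale (standard error 1.30, limma adjusted p = 4.73e-06), and the other cortex keratins and Krt35 rose by 5.95 to 7.52. The median of these 8 was 7.08, and became 7.85 without recovery mouse 4 and 7.69 without mouse 7. Krt32 rose by 1.36 (standard error 0.465, adjusted p = 0.0211), a call lost without any 1 of recovery mice 1, 2, 6 and 8 (adjusted p from 0.0544 to 0.0554).

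Krt31 was at 8.02, 2041 and 3251 (lowest, median and highest) in these 8 mice and Krt86 at 14.2, 3336 and 6007. Mice 1, 2, 5, 6 and 8 had all 7 cortex keratins above 1000, mouse 3 was intermediate (Krt31 at 255, Krt81 at 433), and mice 4 and 7 were below 100 for all 7. Against saline, limma, edgeR and DESeq2 called 0 of the 9 members (3.05% of all genes were called by limma in either direction), and 0 had an unadjusted p below 0.05. The log2 fold changes lay between -0.32 (Krt35, standard error 1.01) and 0.41 (Krt34, standard error 1.25). By the same normal distribution, the 95% interval for Krt34 ran from -2.04 to 2.86. The median of the 8 members other than Krt32 was 0.18, and became -0.42 without saline mouse 6 and 0.94 without recovery mouse 4.

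**Figure D3:**
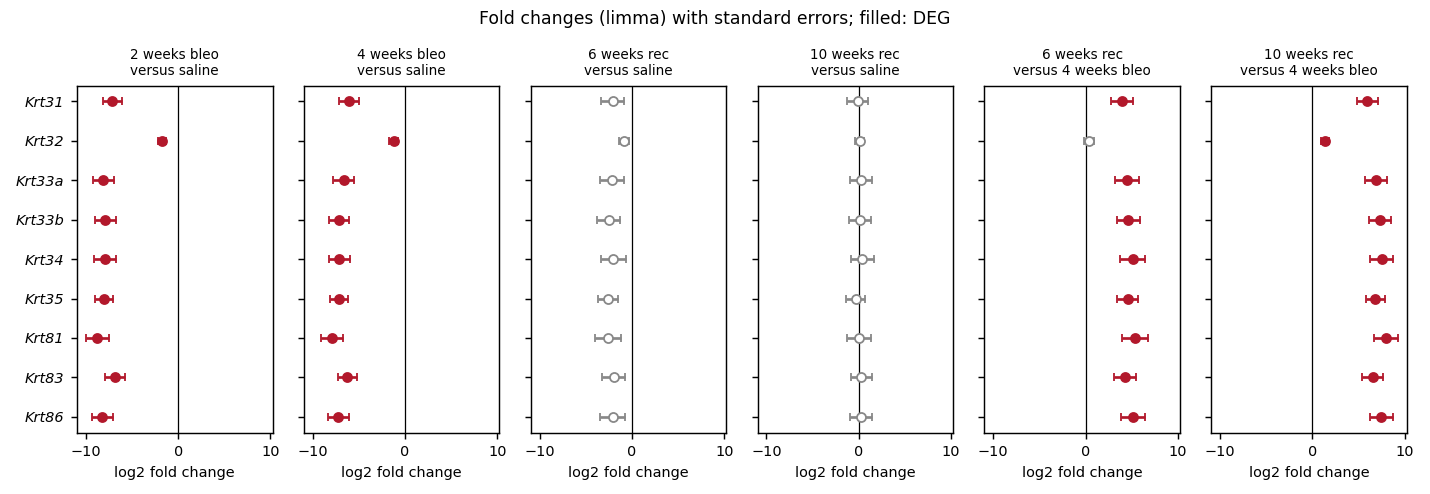
Log2 fold change (limma) of each measured member in 6 comparisons, with 1 standard error on each side; filled points met the DEG criteria (bleo, bleomycin; rec, recovery). All 9 members were lower in both bleomycin groups, none was called against saline after recovery, and Krt32 had the smallest fold change except at 10 weeks of recovery against saline.

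Across mice, the members rose and fell together. After group means were taken off, Pearson's r over 44 mice ranged from 0.745 (Krt32 with Krt35) to 0.985 (Krt34 with Krt81), with a median of 0.946 over the 36 pairs. Spearman's rho ranged from 0.654 to 0.956. Among the 7 cortex keratins, r was 0.941 to 0.985, Krt35 reached 0.881 to 0.925 with them, and Krt32 reached 0.752 to 0.837. Within the saline group alone the cortex keratins had r from 0.990 to 0.999, and within the 6-week recovery group from 0.983 upward. In the 2-week bleomycin group r was 0.496 to 0.899 and rho -0.164 to 0.653, where most values are a few reads. These are descriptions, since the points share libraries and related genes may share reads.

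The make-up of the keratin RNA differed in how far each member varied. In the 20 mice with 1000 or more member reads, the share of Krt31 in the summed level per kilobase was 7.83% to 12.8%, that of Krt81 10.4% to 16.3% and that of Krt83 11.3% to 15.9%. Krt32 made up 1.08% to 15.2% (median 2.20%), and its share was highest in mouse 3 given bleomycin for 4 weeks, the one mouse of the bleomycin groups among the 20. In mouse 2 of that group, with 118 member reads, Krt32 was 88.2%.

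Krt35 had a share of 4.57% to 24.0%. Among the 8 saline mice with 1000 or more member reads, the ratio of Krt35 to Krt31 ran from 0.653 to 2.09. Mice 1, 3, 4 and 5 were at 1.34 or above and mice 7, 8, 9 and 10 at 0.859 or below, while the 5 mice at 6 weeks and the 6 mice at 10 weeks of recovery with as many member reads were at 0.865 to 1.28 and 0.765 to 1.54. In saline mouse 6 the ratio was 18.9, from 227 reads of Krt35 and 12 of Krt31, so that Krt35 alone was 62.9% of the keratin RNA per kilobase. Mouse 8 at 2 weeks of bleomycin (6.08, from 79 and 13 reads) and mouse 4 at 10 weeks of recovery (6.00, from 54 and 9 reads) had the next highest ratios. The 3 mice with the highest ratios all had low cortex keratins, but Krt31 is itself a cortex keratin, so a low Krt31 raises the ratio. Saline mouse 2 and mouse 7 at 10 weeks of recovery, also low in the cortex keratins, were at 1.35 and 1.27.

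Saline mice 6 and 2, the low mice of the group, had unlike levels of several genes of the hair matrix. Shh, a signal made by the matrix, was at 84.9 in mouse 6 and 5.71 in mouse 2, in a group with a median of 38.1. Lef1 was at 139 and 28.5, and Hoxc13 at 161 and 81.1. Foxn1, a factor of the cortex, was lower in mouse 6, at 129.7 against 159.9. Krt71, a keratin of the inner root sheath, was at 1372 and 916, both far below the group median of 18455. Shh, Lef1, Hoxc13 and Foxn1 were picked after their values were seen.

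**Figure D4:**
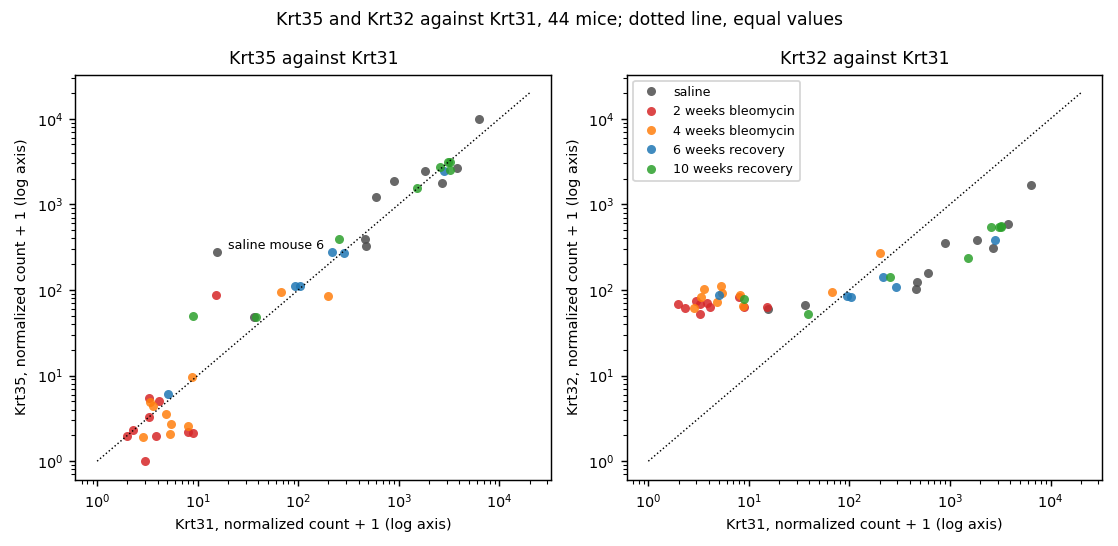
Krt35 (left) and Krt32 (right) against Krt31 in 44 mice, as normalized count + 1 on log axes, coloured by group; the dotted line marks equal values. Krt35 lay farthest above Krt31, relative to it, in saline mouse 6 (275 against 14.5), mouse 8 at 2 weeks of bleomycin (86.1 against 14.2) and mouse 4 at 10 weeks of recovery (48.1 against 8.02), while Krt32 lay between 51.0 and 111 in the mice with Krt31 below 100.

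Other genes of the growing follicle were low in the same groups. Of the keratin-associated proteins, which crosslink hair keratin filaments, 57 were in the table and 56 were tested. All 56 were lower after 2 weeks of bleomycin (median log2 fold change -6.29) and 55 after 4 weeks (median -5.64). The exception was Krtap20-2, named after its value was seen (-1.49, standard error 0.720, limma adjusted p = 0.101). At 10 weeks of recovery all 56 were higher than at 4 weeks of bleomycin, and 39 were at 6 weeks. Their summed level had medians of 18004 with saline, 150.1 and 165 in the bleomycin groups, 4157 at 6 weeks and 52831 at 10 weeks of recovery. Krtap8-1 and Krtap7-1, the highest on average, fell by 8.67 and 8.75 on the log2 scale after 2 weeks.

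The other hair fibre keratins in the table, Krt39, Krt40, Krt82, Krt84 and Krt87 (Krt36 was not analysed here), were all lower in both bleomycin groups. Krt87, a close relative of Krt81, had the largest change after 2 weeks (-7.32, standard error 1.03) and Krt84 the smallest (-3.46, standard error 0.809). Krt84 was at 982 in saline mouse 8, above the 832 of mouse 1, while Krt31 was at 468 there and 6336 in mouse 1.

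Keratins of the inner root sheath and companion layer, the tubes that mould the growing fibre, fell with the shaft keratins. All 9 tested were lower in both bleomycin groups, with a median log2 fold change of -7.99 after 2 weeks and -6.84 after 4 weeks, and all 9 were higher at 10 weeks of recovery than at 4 weeks of bleomycin. Krt71 had a median of 18455 with saline, 9.21 after 2 weeks and 42428 at 10 weeks of recovery. Krt75, of the companion layer, fell by 1.81 on the log2 scale after 2 weeks (standard error 0.340).

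Regulators of the hair matrix and cortex were lower in part. Of 14 genes, 9 were lower after 2 weeks and 10 after 4 weeks, none was higher, and the median log2 fold changes were -1.72 and -1.68. Dlx3, a homeodomain factor of the matrix, fell by 2.05 (standard error 0.364) after 2 weeks. Gata3, a factor of the inner root sheath, changed by -0.47 (standard error 0.0821), under the fold change threshold. Hoxc13 and Lef1, named for the promoter motifs and after their values were seen, fell by 2.07 and 2.04 after 2 weeks and were higher at 10 weeks of recovery than at 4 weeks of bleomycin by 2.32 and 1.22. At 6 weeks of recovery 3 of the 14, Msx1, Ovol1 and Shh, were lower than with saline (log2 fold changes -1.38, -0.60 and -2.28). These 3 are named here because they were called, after their values were seen. At 10 weeks 0 of the 14 were called against saline by limma.

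Some genes listed for the resting follicle and bulge were lower as well. Of the 10 listed, 5 were lower after 2 weeks and 3 after 4 weeks, with medians of -0.57 and -0.20. Whether these genes mark resting follicles alone was not tested. Krt15, a bulge and basal keratin, had a log2 fold change of 0.11 (standard error 0.134) after 2 weeks, and Cd34, which is also made by other skin cells, fell by 0.74. None of 6 epidermal keratins was called after 2 weeks, Krt5 being at 0.06 (limma adjusted p = 0.655), and 1 was higher and 1 lower after 4 weeks. Of the 4 stress keratins, 3 rose after 2 weeks, Krt6b by 6.42 (standard error 0.643) and Krt16 by 2.38 (standard error 0.474), both keratins of wounded epidermis. The remaining one, Krt17, had the highest mean level of the list and went the other way. Its log2 fold change was -0.45 (standard error 0.133, limma adjusted p = 0.00679), under the fold change threshold. Of 7 cell division genes, 2 were lower after 2 weeks, 7 after 4 weeks and 6 at 6 weeks of recovery. All 6 pigment cell genes were lower after 2 weeks (median -1.76) and none after 4 weeks (median -0.37).

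**Figure D5:**
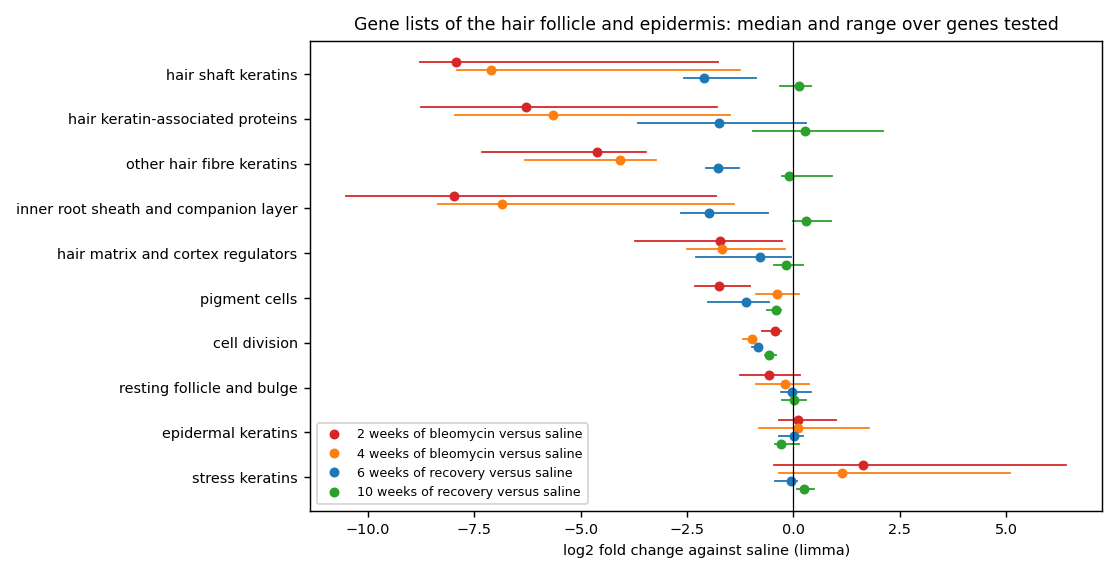
Median (point) and range (line) of the log2 fold change against saline (limma) over the tested genes of each list, coloured by comparison. Shaft keratins, their associated proteins and inner root sheath keratins had medians of -5.64 to -7.99 in the bleomycin groups and near 0 at 10 weeks of recovery, while the epidermal keratins had medians of 0.10 in both bleomycin groups.

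Ranked by Spearman's rho with the mean log2 level of the 9 members over 44 mice, the 5 genes most like them out of 17028 were Tgm6 (0.970), Krtap21-1 (0.970), Krtap6-1 (0.967), Krt26 (0.966) and Krtap28-10 (0.966). After group means were taken off they were Tgm6 (0.963), Krt27 (0.962), Krt71 (0.956), Krtap2-4 (0.947) and Krtap6-1 (0.946). Tgm6 is a transglutaminase, Krt26, Krt27 and Krt71 are inner root sheath keratins, and the rest are keratin-associated proteins. Among the 50 most alike over 44 mice, 26 were keratin-associated proteins and 7 were keratins. Hoxc13 stood at rank 78 (rho 0.925), Shh at 329 (0.767) and Lef1 at 448 (0.738).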

How the data were processed

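RNA from the injected back skin of 44 mice was sequenced as stranded mRNA libraries with paired 50-base reads. Per the labels and the submitters' processing notes, the authors aligned reads with STAR 2.4.0 to mm10 and divided gene counts by DESeq2 1.12.3 size factors, and the deposited signal values are these normalized counts. The counting tool, strand setting and annotation are not given in the sources used here. Whole reads were recovered from 100% of values within 0.05 of a whole number. Symbols were matched for 42929 of 43411 identifiers.

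Values were taken as log2(normalized count + 1), genes with a mean above 3 were kept, and limma 3.58.1 (R 4.3.3) with a mean-variance trend was fitted over all 44 mice and 5 groups, with Benjamini-Hochberg adjustment over 17037 genes. Genes past a 1.5-fold change with an adjusted p below 0.05 were called. The fit was tested on simulated data whose spread between mice was smaller than that of the members with saline. That test therefore does not cover values such as those of the members. EdgeR 4.0.16 and DESeq2 1.42.0 on the recovered reads, other pseudocounts, filters, scalings and sample sets, and leaving out each mouse were tried. Named genes were the listed members, up to 4 genes of each list by highest mean, and the 5 genes most alike. Others are said to have been chosen after their values were seen. The members and lists were chosen with earlier results of these data known. The p-values set a difference between groups against the spread between these mice. Nothing states whether mice of a group were handled together, and an effect of such handling could not be told apart from that of treatment.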

Additional observations from a re-analysis of the deposited data

Results flagged for a closer look

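By Dixon's test of the most extreme mouse in a group, 8 of 45 sets of a member in a group held a mouse far from the others, where chance gives about 1 in 20. Mouse 8 of the 2-week bleomycin group stood apart in 6 members: Krt33a at 47.9 normalized counts (next mouse 3.90), Krt33b at 14.2 (2.27), Krt34 at 33.8 (4.78), Krt35 at 86.1 (4.54), Krt81 at 32.7 (4.78) and Krt86 at 31.6 (3.52). These 6 come from 1 library and are not independent. Krt32 was at 271 in mouse 3 of the 4-week bleomycin group, against 111 in the next mouse. Krt32 was at 378 in mouse 4 of the 6-week recovery group, against 140.1 in the next.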

How the results depend on the processing

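The 9 members were called lower after 2 weeks of bleomycin under every alternative tried. The count of members called higher at 6 weeks of recovery against 4 weeks of bleomycin was 8 and became 0 with normal scores, and the count between 4 and 2 weeks of bleomycin was 0 and became 1 with DESeq2. The cause was not tested. Leaving out each mouse gave 0 to 1 members at 6 weeks of recovery against saline, 7 to 8 at 6 weeks against 4 weeks of bleomycin, and 8 to 9 at 4 weeks of bleomycin against saline and at 10 weeks of recovery against 4 weeks. Without saline mouse 1 and 2-week mouse 2, Krt32 at 4 weeks was not called (-0.93, limma adjusted p = 0.0670), nor with normal scores (adjusted p = 0.129), and Krt32 at 10 weeks of recovery against 4 weeks was not called with normal scores (adjusted p = 0.197). With the replicate block the count after 2 weeks was again 9, and it changed no other call. The numbers name different animals, 4 of 44 mice were most like a mouse of their own number, and 18 of 78 same-numbered pairs correlated above 0.1. No direction of a called member reversed. Values at or under 3 reads limit what can be said of changes within the bleomycin groups.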
